A study of Mus musculus with 111 samples.

Results

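Potassium channel genes were followed here across the day in the tuberomammillary nucleus (TMN) of the mouse, the hypothalamic cell group that makes histamine and is active in waking. The members were all gene names that start with Kcn and follow the gene family's letter-and-number pattern, without the antisense and overlapping transcripts whose names end in os or ot. There were 93 such names among the 54087 gene names in the count files. C57BL/6 mice (C57BL/6J in the study's methods) of both sexes, 8 to 10 weeks old, received an adeno-associated virus into the TMN that drove GFP, the histone variant H3.3 in unaltered form, or H3.3(Q5A), in which the glutamine at position 5 is replaced by alanine. Tissue was dissected under GFP guidance 21 days later, with 1 mouse in each library, at ZT0, ZT4, ZT8, ZT12, ZT16 or ZT20 of a cycle of 12 h of light and 12 h of darkness in which ZT0 is lights on.

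After 1 pair of identical libraries was counted as 1 sample, there were 110 libraries, of which 32 were GFP, 39 were H3.3 and 39 were Q5A, in 3 cohorts. GFP and H3.3 were pooled as controls (71 libraries, 9 to 14 at each ZT), as the study did, and Q5A had 6 or 7 libraries at each ZT. Every group carried a virus, the endogenous H3 genes were intact in all of them, and no source used here says which cell types the virus entered. The dissected tissue is a mixture of cells, so fewer cells of a type and less RNA per cell cannot be told apart in any value below.

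Potassium channels let potassium leave the cell and so pull the membrane potential down. Voltage-gated (Kv) channels repolarise the action potential and set how fast a neuron can fire, leak (K2P) and inward rectifier channels hold the resting potential, and calcium-activated channels shape the pause after a spike. In the central clock, day and night differences in such currents are known to accompany the daily change of firing rate, and an A-type potassium current is known in the slow pacemaker firing of TMN neurons.

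The libraries held between 673306 and 3375352 reads in gene rows, with a median of 1474422. Those gene rows took only 3.49% to 5.63% of the uniquely placed reads. The library kit yields first reads that run against the transcript, whereas the stated counting setting keeps reads that run along it, so the values are counts of the deposited gene rows and which strand's RNA gave them cannot be told apart. The 93 member rows held 187914 reads in all, 0.118% of the gene reads, and between 0.0773% and 0.215% in single libraries. An exon of 26 members (28.0%) overlapped an exon on the other strand, and those members held 47.4% of the member reads. Among all annotated gene names 19.9% had such an overlap, and they held 80.0% of the reads of annotated names. Hdc, the histamine-forming enzyme that defines the TMN neuron, had a median of only 4 reads and had a read in 99 of the 110 libraries. Separately from these limits, 8 libraries stood apart with the highest gene share (4.56% to 5.63%, against 3.49% to 4.47% in the other 102), and 3 libraries held rows of striatal neurons.

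Kcna6, a Kv1 subunit, had the highest mean level per length, with 19.9 normalised counts per kb of exon averaged over the libraries. High single libraries weigh in that rank, since the mean of Kcna6 was 118 normalised counts and its median 64.1. An order by median was not made. By the mean, Kcnj10, the main inward rectifier of astrocytes, followed Kcna6 at 16.1 per kb. Kcnj3, a subunit of the G-protein-gated inward rectifier, came next at 14.9 per kb, and then Kcnk12, a K2P subunit, at 14.01 per kb. Exons on the other strand overlap 2355 exon bases of Kcna6 and 1621 of Kcnj3, but none of Kcnj10 or Kcnk12. Reads were concentrated, since the 10 members with most reads held 48.5% of the member reads. Among those 10 were Kcna6, Kcnh7 (an ERG-type subunit), Kcnc1 (a Kv3 subunit), Kcnj10, Kcnj3, Kcnab2 (a cytosolic Kv beta subunit) and Kcnk2 (a mechanosensitive K2P channel). At the other end, 18 members had a mean under 1 read per library, and Kcne1 had no read at all.

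By family, the 17 Kv1 to Kv4 subunits held 30.7% of the member reads, the 15 inward rectifiers 14.9%, the 14 K2P leak channels 13.3% and the 16 auxiliary subunits 13.2%. The 8 EAG, ERG and ELK subunits held 10.2%, the 8 calcium- or sodium-activated subunits 8.11%, the 5 KCNQ subunits 5.93% and the 10 silent Kv subunits, which form no channel alone, 3.73%.

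Rhythm was called with JTK_CYCLE, a rank test of each gene's normalised counts (reads divided by a size factor for the library) against waves of 8 to 24 h, in the 75 members with a mean of at least 1 read. In the pooled controls 18 of 75 members were called at an adjusted p under 0.05 (24% of them), where 15.2% of all 18313 tested genes were called. Of Kv1 to Kv4 members 7 of 15 tested were called, among them Kcna1, Kcna2, Kcna5, Kcna6, Kcnc1 and Kcnc2. The other calls were Kcng2 among silent Kv (1 of 8), and Kcnj6, Kcnj10 and Kcnj12 among inward rectifiers (3 of 12). Kcnk4, Kcnk6, Kcnk12 and Kcnk13 were called among K2P channels (4 of 10), as were Kcnab2, Kcne2 and Kcnip2 among auxiliary subunits (3 of 10). No member was called among the 5 KCNQ, the 7 EAG, ERG and ELK or the 8 calcium- or sodium-activated subunits tested. That adjustment covers the wave templates of 1 gene but not the number of genes. With a Benjamini-Hochberg q under 0.05 over all genes, 5 members were called (Kcnk13, Kcnk12, Kcnj10, Kcnip2 and Kcna6) against a background of 2.41%.

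**Figure D1:**
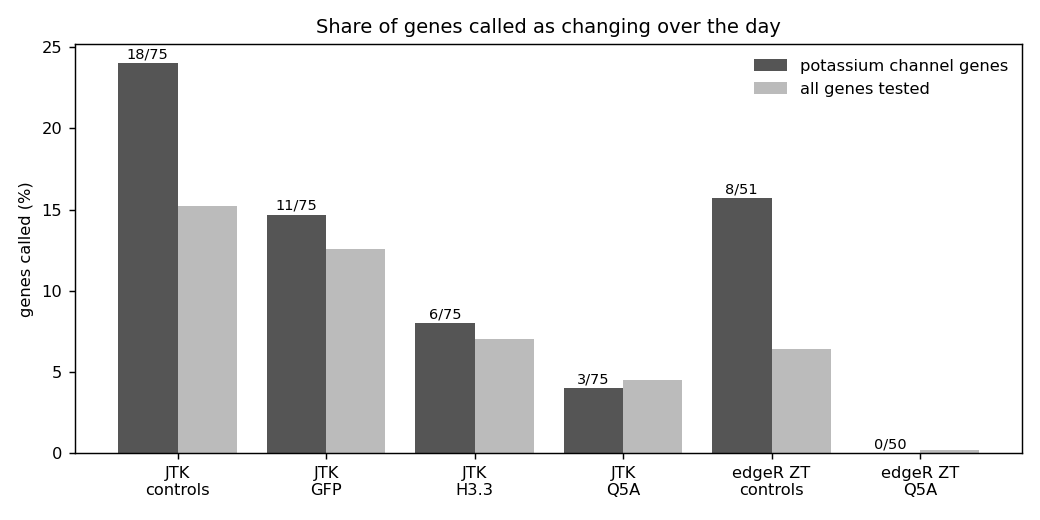
Share of tested genes called (percent, bars from 0) by JTK in the pooled controls, GFP, H3.3 and Q5A libraries and by the edgeR test of ZT in controls and Q5A, for potassium channel genes (dark) and all genes (light), with counts above the dark bars. By JTK the members' share was 24% against 15.2% of all genes in controls, 14.7% against 12.6% in GFP, 8% against 7.02% in H3.3 and 4% against 4.52% in Q5A.

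The called members did not all share a phase. Their highest mean lay at ZT20 in 6 members, at ZT0 in 4 and at ZT4 in 3. It lay at ZT8 and ZT12 in 2 members each and at ZT16 in 1. That makes 9 in the dark and 9 in the light, but lights on parts ZT20 from ZT0, which are neighbours and the 2 most frequent. The phases of all genes were not counted. The lowest mean lay at ZT8 in 6 members, at ZT0 in 5 and at ZT12 in 4. The best wave had a period of 24 h in 10 members, 20 h in 7 and 16 h in 1.

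**Figure D2:**
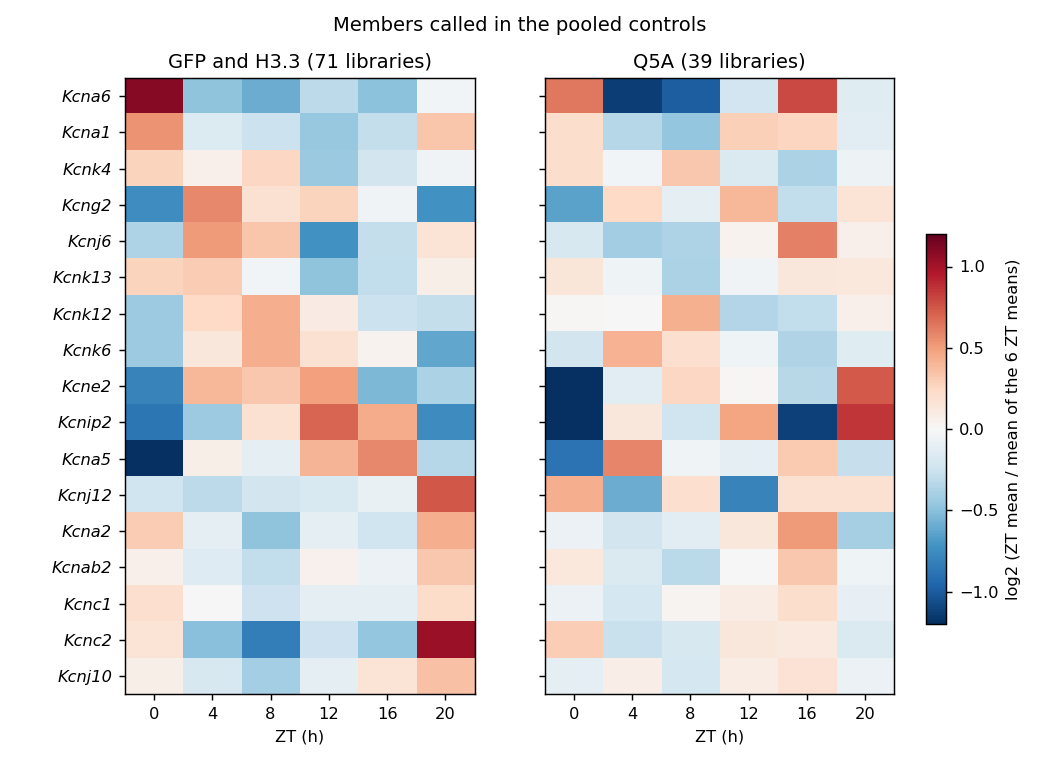
Mean normalised count of 17 of the 18 rhythm-called members at each ZT, as the log2 ratio to that member's mean over the ZTs, with the pooled controls on the left and Q5A on the right. In controls Kcnc2, Kcnj10, Kcna2 and Kcnab2 are highest at ZT20 and lowest at ZT8, and Kcnk12 and Kcnk6 are highest at ZT8.

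Kcnc2, the Kv3 subunit of fast-firing neurons, had the smallest p of all members in the test of any difference between ZTs. It lies at chr10:112271121-112467024 on the + strand (GRCm38, GENCODE annotation). In controls its normalised count was 2.64 at lowest, 7.38 in the median and 16.9 at highest at ZT8 (mean 8.21 ± 4.38 SD, n = 13), and 5.73, 23.1 and 63.1 at ZT20 (mean 29.7 ± 19.8 SD, n = 11). The ZT20 libraries reached far above the highest ZT8 library, although the ranges overlapped at their low end. The mean at ZT20 was 3.62 times that at ZT8 (JTK adjusted p = 0.00237, edgeR quasi-likelihood F test of ZT adjusted p = 2.2e-05). The highest and second highest Kcnc2 values at ZT20, 63.1 and 60.9, both came from H3.3 libraries of the highest gene share, and without the libraries of highest gene share the ZT20 mean was 22.6 ± 13.1 (SD, n = 9) and the edgeR adjusted p was 0.0039. Outside ZT20 no control library exceeded 28.4.

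Kcnc1, another Kv3 subunit, had a mean of 120 ± 32.7 (SD, n = 11) at ZT20, ranging from 84.2 to 193, and of 86.5 ± 17.9 (n = 13) at ZT8, ranging from 60.4 to 125 (1.38 times, JTK adjusted p = 0.0143), so that the ranges overlapped widely. Kcnc4, which also belongs to Kv3, had a JTK adjusted p of 1.00.

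Among Kv1 subunits, which open near threshold at axons and terminals, Kcna2 (chr3:107101146-107115005, + strand) followed the same ZT20 and ZT8 extremes. In controls Kcna2 was 7.79 at lowest, 24.2 in the median and 45.3 at highest at ZT8, and 26.2, 38.9 and 80.3 at ZT20. The ranges overlapped between 26.2 and 45.3. The ratio of means was 1.89 (JTK adjusted p = 0.00798, edgeR ZT adjusted p = 0.0292). Kcna1 (chr6:126640397-126646384, - strand) was instead highest at ZT0, with 15.7, 35.4 and 46.2 as lowest, median and highest value, and lowest in mean at ZT12, with 6.33, 16.04 and 30.9 (ratio of means 2.00, JTK adjusted p = 0.00322). The Kcna1 groups overlapped and the edgeR ZT test missed its threshold (adjusted p = 0.0561). Kcna5 was a low-count member with means of 5.15 at ZT16 and 1.45 at ZT0 (JTK adjusted p = 0.0106).

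The Kv4 subunits, which carry the fast A-type current, were not called. Kcnd2 was 7.49, 13.8 and 24.2 at ZT8 and 12.9, 22.1 and 48.3 at ZT20 as lowest, median and highest (JTK adjusted p = 0.204, edgeR ZT adjusted p = 0.072). Kcnip2, a calcium-binding auxiliary subunit that brings Kv4 channels to the membrane, was called in the controls, with few reads behind it. It lies at chr19:45791839-45816061 on the - strand. Kcnip2 was 0 at lowest, 2.80 in the median and 7.23 at highest at ZT0, and 2.84, 6.33 and 28.3 at ZT12, with an overlap from 2.84 to 7.23. Its mean was 2.95 times higher at ZT12 than at ZT0 (JTK adjusted p = 0.000275, edgeR ZT adjusted p = 0.00947). Both the highest control value and the highest Q5A value, 41.0, came from libraries with striatal rows. Without the 3 libraries with striatal rows JTK still called Kcnip2 in controls (adjusted p = 0.00156), but it no longer passed the low-count filter of the edgeR test there.

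Kcnab2, whose beta subunit binds Kv1 channels, was 34.8, 47.8 and 177 at ZT8 and 51.5, 85.7 and 132 at ZT20 as lowest, median and highest in controls. Its ratio of means was 1.54 (JTK adjusted p = 0.00284), and the highest single value of these groups stood at ZT8, not at ZT20. Kcne2, a single-span auxiliary subunit, had at most 11.2 normalised counts in any control library (JTK adjusted p = 0.0302), and leaving out either of 2 H3.3 ZT8 libraries ended its call.

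Among inward rectifiers Kcnj10 (chr1:172341210-172374085, + strand) changed with the most reads behind it. Its channel is the main route by which astrocytes take up the potassium that firing neurons release. Kcnj10 was 45.3, 65.7 and 103 at ZT8 (mean 66.0 ± 15.6 SD, n = 13) and 66.3, 98.4 and 187 at ZT20 (mean 112 ± 34.4 SD, n = 11) as lowest, median and highest. Every ZT20 library exceeded the ZT8 median, while the ranges overlapped between 66.3 and 103. The ratio of means was 1.69 (JTK adjusted p = 0.00023, edgeR ZT adjusted p = 0.0167). Without the libraries of highest gene share the ZT20 mean was 99.4 ± 21.6 (SD, n = 9) and the edgeR ZT adjusted p was 0.0375.

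Kcnj6, a G-protein-gated inward rectifier subunit that inhibitory transmitters open, had means of 14.9 ± 12.4 (SD, n = 11) at ZT4 and 6.33 ± 3.54 (n = 13) at ZT12 (JTK adjusted p = 0.00834, edgeR ZT adjusted p = 0.054). At ZT4 its control libraries ran from 1.23 to 39.5, and so below and above the whole ZT12 range of 2.46 to 14.3. Kcnj12, a strong inward rectifier, was 1.21, 9.45 and 15.1 at ZT20 as lowest, median and highest, and had means between 4.29 and 5.02 at the other ZTs (JTK adjusted p = 0.044). Its call was lost without any 1 of 28 of the 71 control libraries. The partner subunit Kcnj3 lay between 43.1 and 121 in all control libraries, with a JTK adjusted p of 1.00.

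The K2P channels, which set the resting leak, held 4 called members in different phases. Kcnk12 (chr17:87745801-87797994, - strand) was 11.6, 23.1 and 29.2 at ZT0 (mean 20.97 ± 6.35 SD, n = 9) and 9.36, 38.7 and 58.8 at ZT8 (mean 38.2 ± 12.7 SD, n = 13) as lowest, median and highest. The ZT8 median exceeded every ZT0 library, although the lowest ZT8 library lay below all of them. The mean was 1.82 times higher at ZT8 (JTK adjusted p = 5.87e-05, edgeR ZT adjusted p = 0.037).

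Kcnk13 (chr12:99964499-100062682, + strand), a halothane-inhibited K2P subunit related to Kcnk12, had the smallest JTK p of all members. It was 16.7, 32.8 and 51.4 at ZT4 (mean 32.0 ± 9.72 SD, n = 11) and 12.5, 17.9 and 32.7 at ZT12 (mean 18.5 ± 5.61 SD, n = 13) as lowest, median and highest, so that the ZT4 median was just above the highest ZT12 library. The ratio of means was 1.73 (JTK adjusted p = 5.1e-05, edgeR ZT adjusted p = 0.0243). Kcnk13 was therefore highest 4 h before Kcnk12 by the means of the controls.

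Kcnk6, a weakly rectifying K2P subunit, was 2.81, 19.8 and 32.8 at ZT8 and 3.14, 8.06 and 23.7 at ZT20 in controls, with a ratio of means of 2.08 (JTK adjusted p = 0.0029, edgeR ZT adjusted p = 0.0707). Kcnk4, a mechanosensitive K2P channel, had means of 21.8 ± 5.81 (SD, n = 9) at ZT0 and 13.3 ± 2.63 (n = 13) at ZT12 (ratio 1.64, JTK adjusted p = 0.0131, edgeR ZT adjusted p = 0.0573). Its libraries ran from 15.6 to 31.1 at ZT0 and from 8.46 to 17.5 at ZT12, with little overlap. Kcnk2 (24.5 to 96.6 over all control libraries, JTK adjusted p = 0.0721) and Kcnk9, an acid-sensitive leak channel (2.83 to 33.6, JTK adjusted p = 1.00), were not called.

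**Figure D3:**
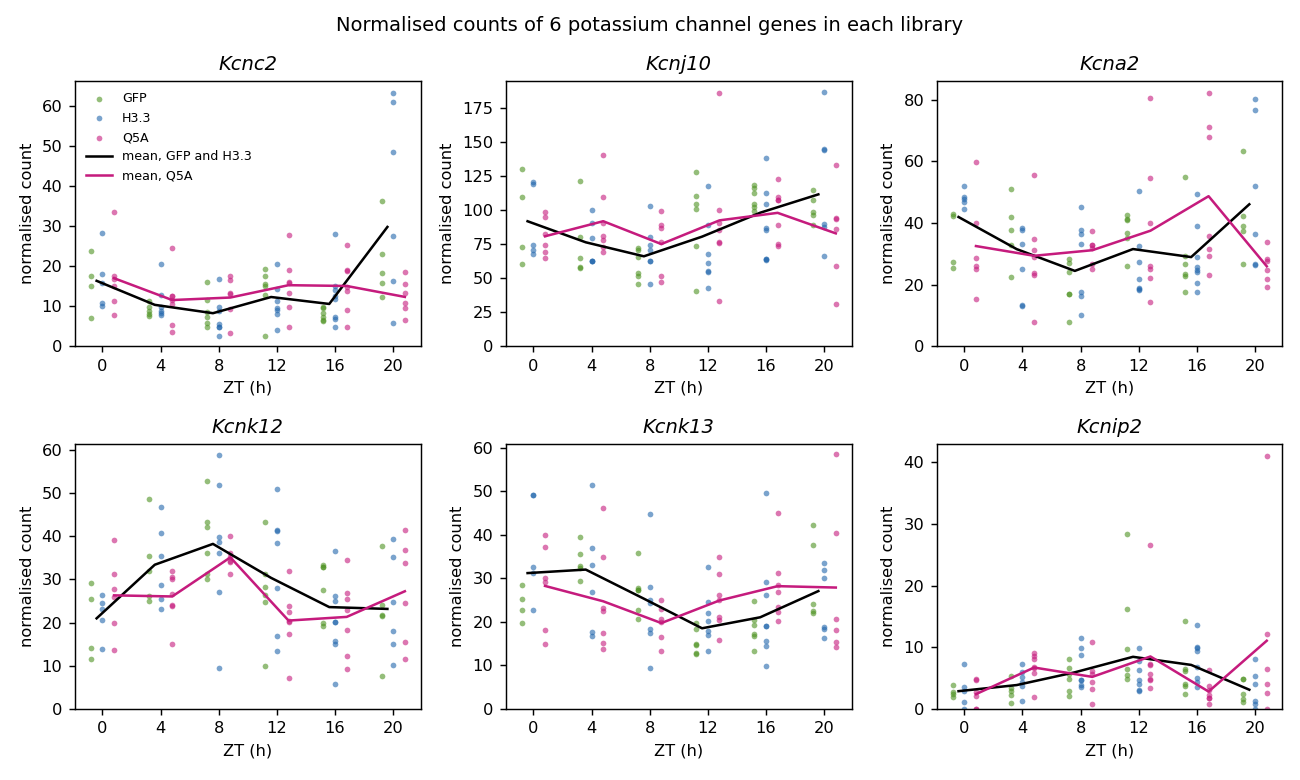
Normalised count of Kcnc2, Kcnj10, Kcna2, Kcnk12, Kcnk13 and Kcnip2 in every library against ZT (hours), with GFP, H3.3 and Q5A libraries as separate points and lines through the means. Kcnc2 reaches 63.1 in controls at ZT20 and 18.5 in Q5A at that ZT, and the points of neighbouring ZTs overlap in every panel.

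Some members known for daily or arousal-related control of firing were not called by JTK. Kcnma1 encodes the pore of the large-conductance calcium-activated channel and lies at chr14:23289431-24014491 on the - strand. An overlap of 1016 bases of its exons with 4930519K11Rik lies on the other strand. Kcnma1 was 16.5, 33.9 and 41.8 at ZT8 (mean 31.3 ± 7.78 SD, n = 13) and 32.7, 44.7 and 76.0 at ZT20 (mean 48.6 ± 14.7 SD, n = 11) as lowest, median and highest. The ZT20 median was above every ZT8 library, and the edgeR test of ZT passed (ratio of means 1.55, adjusted p = 0.0473), whereas JTK did not (adjusted p = 0.217). The edgeR call was lost in 10 of 15 alternatives, among them cohort as a covariate and the fit without the libraries of highest gene share.

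Kcnq3, a subunit of the M-current, lay between 1.57 and 47.3 over all control libraries, with a JTK adjusted p of 1.00. Kcnh7 lay between 47.1 and 191 (JTK adjusted p = 0.152). Kcnh7 is among the members with many reads, so its range is not that of a row near 0, but 696 bases of its exons overlap exons of Gca on the other strand.

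The edgeR quasi-likelihood F test, which asks for any difference among the 6 ZTs and assumes no wave, called 8 of 51 members in controls (15.7% of them) at an adjusted p under 0.05, against 6.4% of all 11897 genes tested. They were Kcnc2, Kcnip2, Kcnj10, Kcnk13, Kcna2, Kcnk12, Kcnma1 and Kcng2. Kcng2, a silent subunit that modifies Kv2 channels, was 0, 2.94 and 11.6 at ZT0 and 4.44, 7.71 and 20.9 at ZT4 as lowest, median and highest (edgeR ZT adjusted p = 0.0496, JTK adjusted p = 0.0125). Among members with a mean of at least 10 reads (41 of them), the median log2 ratio between the highest and the lowest ZT mean was 0.62 in controls, beside 0.48 for the 9542 genes with as many reads. In Q5A it was 0.55 for members and 0.50 for all such genes. When the 8 libraries of highest gene share were left out, 5 of which were controls, 2 of 48 members kept the edgeR ZT call in controls (Kcnc2 and Kcnj10), against 4.19% of 11476 genes, and JTK called 18 members, against 14.2% of genes.

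Markers of other cell types also moved with ZT in controls, and their part in the member results was not tested. The summed CPM (counts scaled to library size) of 4 general neuron genes (Rbfox3, Snap25, Syt1 and Eno2) had a median of 363 at ZT8 and of 573 at ZT20, and JTK called 2 of the 4. Oligodendrocyte genes had medians of 567 at ZT8, 1333 at ZT20 and 1462 at ZT0 (3 of 4 called), astrocyte genes 84.7 at ZT8 and 141 at ZT16 (1 of 4 called), and histaminergic genes 62.0 at ZT8 and 108 at ZT20 (2 of 4 called). Microglia genes had 0 of 4 called by JTK, endothelial genes 1 of 3, striatal genes 1 of 3 and pituitary genes 1 of 2 tested. Over all genes JTK called 15.2% in controls, and these lists are too short to set against that share. The member rows took a mean of 0.102% of gene reads at ZT8 and of 0.136% at ZT20.

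The gene share of a library went with the share of reads in member rows as well. In the 8 libraries of highest gene share the member rows took a median of 0.166% of the gene reads, and in the other 102 libraries 0.111%. Among 27 named members, 14 had a higher and 13 a lower median in the 8 libraries, which is near an even split. The same count over all genes was not made, and the members given next were picked from both sides. Kcnab2 had medians of 112 against 58.3, Kcnc2 of 22.5 against 11.3 and Kcnj10 of 134 against 80.7. Kcnh7 went the other way with 52.6 against 114, as did Kcnk12 with 18.2 against 27.7 and Kcnk6 with 9.47 against 15.4. At ZT20, 2 of the 11 control libraries and 0 of the 6 Q5A libraries were among the 8, and at ZT8 none was.

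**Figure D4:**
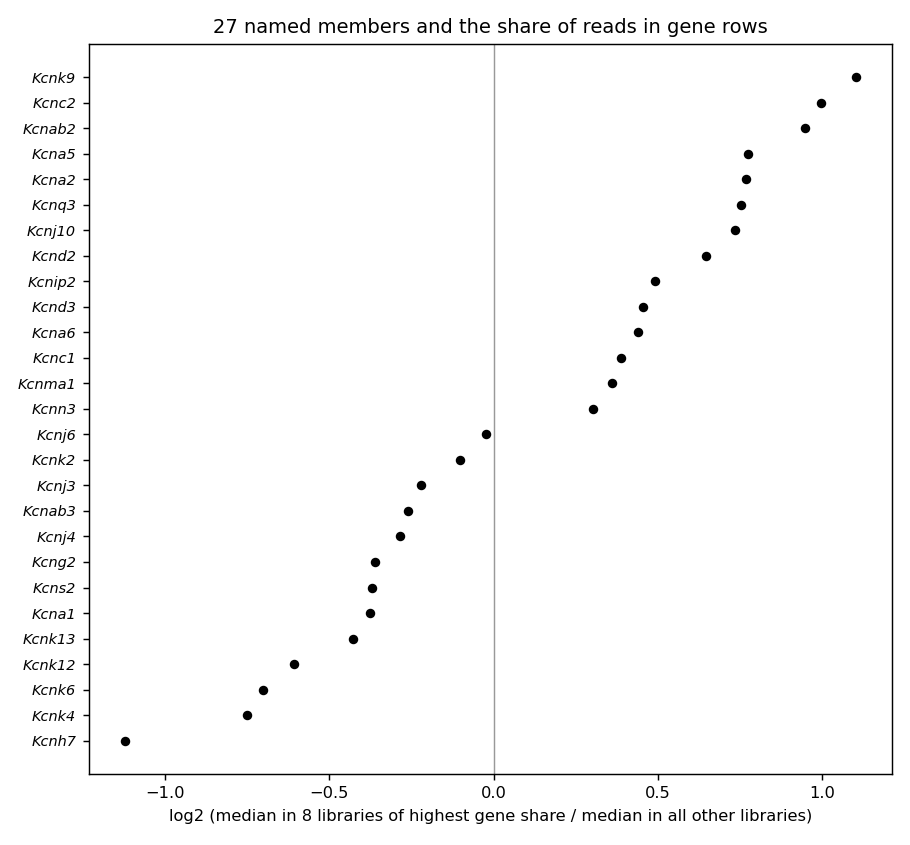
Log2 ratio, for each of the 27 named members, of its median normalised count in the 8 libraries of highest gene share to its median in the other 102, with 0 marked by a line. There are 14 members right of the line and 13 left of it.

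In Kcna6 single libraries set the level. It lies at chr6:126708329-126740674 on the - strand, and 2355 bases of its exons overlap exons of Gm26673 on the other strand. In controls Kcna6 was 80.4, 126 and 943 at ZT0 and 23.1, 41.3 and 531 at ZT8 as lowest, median and highest. Its median over all libraries was 64.1, and 16 libraries exceeded 3 times that value, of which 4 were GFP, 6 H3.3 and 6 Q5A, and 10 belonged to cohort 1, 4 to cohort 2 and 2 to cohort 3. High libraries were thus found under each virus and in each cohort. JTK, which works on ranks, called Kcna6 in controls (adjusted p = 0.000592), whereas the edgeR ZT test missed its threshold (adjusted p = 0.0941).

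Of the 10 libraries highest in Kcna6, 7 were also among the 10 highest in Kcnab3os, an antisense row on another chromosome, and 4 among the 10 highest in Kcna1, the neighbour of Kcna6 on chromosome 6. Kcnj10 shared 1, and Kcnc2 and Kcnk12 shared 0.

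**Figure D5:**
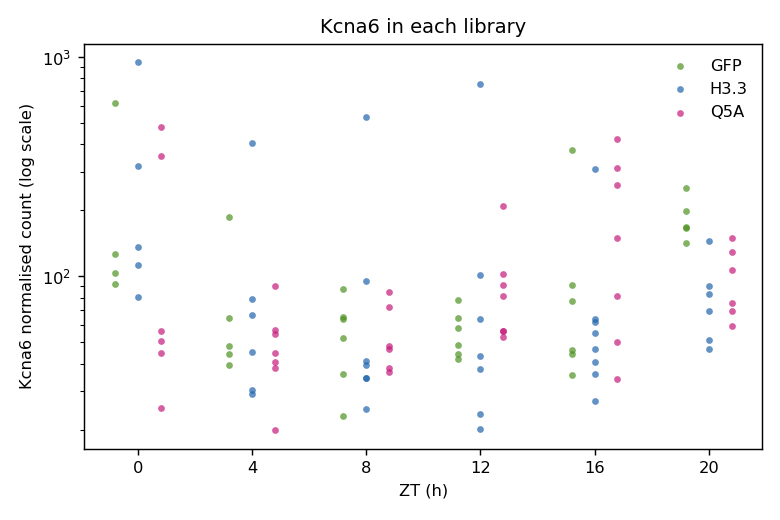
Normalised count of Kcna6 (log axis) against ZT (hours), 1 point per library, coloured by virus. Kcna6 reaches 943 where its median over the libraries is 64.1, and high libraries occur under each virus.

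Rows on the opposite strand of several members held more reads than the members. Kcnab3os had a median of 138 reads where Kcnab3, a Kv beta subunit, had 16, and JTK called it, with an adjusted p of 0.00294 for the controls and 0.00748 for Q5A. Kcnd3os had 59 where Kcnd3, a Kv4 subunit, had 21 (JTK adjusted p = 0.0256 in controls), and Kcnmb4os1 and Kcnmb4os2 had 154 and 160 where Kcnmb4, a beta subunit of the large-conductance channel, had 11. Of the 75 members that JTK tested 24 had an exon overlapped on the other strand, as did 4 of the 18 called.

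None of the short motifs searched was found in the proximal promoters of the called members that had an entry. At shares of 6.02% or less over all promoters, 21 promoters are too few to set the called members apart. In the 250 bases before RefSeq gene starts (GRCm38.p6), the E-box CACGTG, to which CLOCK and BMAL1 can bind, was present in 6.02% of 32851 promoters, in 6 of 93 member promoters (6.45%, from 68 members with an entry) and in 0 of 21 promoters of called members, which come from 14 of the 18 called genes. The D-box TTATGTAA was in 0.819% of all promoters, the ROR element TAGGTCA in 2.23% and the cAMP element TGACGTCA in 1.55%, and none of these was in a member promoter. Both strands were searched, and since only the E-box matched, no motifs overlapped in a member promoter. The 6 member promoters with an E-box belong to 5 genes, Kcnab1, Kcne4, Kcnh4, Kcnj2 and Kcnn4. Their JTK adjusted p-values in controls were 0.650 for Kcnab1 (a Kv beta subunit), 1.00 for Kcnj2 (a strong inward rectifier), 1.00 for Kcnh4 and 0.827 for Kcnn4, and Kcne4 had too few reads to be tested. The matches of Kcnab1 and Kcnj2, 3 of the 6, are printed as examples of an E-box in members that were not called. The capitals mark the E-box, and each stretch keeps 30 bases on either side.
Kcnab1, chr3:65108822-65108887, + strand: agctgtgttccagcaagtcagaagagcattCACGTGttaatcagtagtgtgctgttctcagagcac
Kcnab1, chr3:65188028-65188093, + strand: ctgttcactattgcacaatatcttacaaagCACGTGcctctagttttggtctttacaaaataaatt
Kcnj2, chr11:111066050-111066115, + strand: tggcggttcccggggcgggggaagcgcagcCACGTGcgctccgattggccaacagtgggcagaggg

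Within each control virus alone the calls thinned. JTK called 11 of 75 members in GFP, against 12.6% of all genes, and 6 of 75 in H3.3, against 7.02%. Of the 18 members called in the pooled controls, 8 were called in GFP and 5 in H3.3. Kcnj10 and Kcnab3 were called in both viruses, but Kcnab3 was not called in the pooled controls (JTK adjusted p = 0.154). The best wave of Kcnab3 had a period of 20 h in GFP and of 16 h in H3.3, and that of Kcnj10 had 20 h in both. Kcnk13 was the member with the smallest p in GFP (adjusted p = 1.32e-06, JTK exact null). Its 5 GFP libraries at ZT4 held 32.8, 35.5, 32.3, 29.4 and 39.4 normalised counts, and its 6 at ZT12 had 12.5 at lowest, 14.8 in the median and 19.8 at highest, so the groups did not overlap. Kcnip2 (adjusted p = 0.00111) and Kcnab2 (adjusted p = 0.00137) followed in GFP by the JTK exact null. In H3.3 none of these 3 was called by it, with adjusted p-values of 0.331 for Kcnk13, 0.670 for Kcnip2 and 1.00 for Kcnab2.

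In H3.3 the smallest p belonged to Kcnab3, with 6.26, 13.1 and 15.4 at ZT4 and 15.7, 18.6 and 25.3 at ZT8 as lowest, median and highest (JTK exact null, adjusted p = 0.00266). Those ZT4 and ZT8 libraries of Kcnab3 did not overlap. Kcnc2 followed with 5.73, 37.9 and 63.1 at ZT20 and 2.64, 5.49 and 16.9 at ZT8 (JTK exact null, adjusted p = 0.0108), and Kcnk6 came next (adjusted p = 0.0132, JTK exact null). In GFP the JTK adjusted p was 0.0332 for Kcnab3, 0.311 for Kcnc2 and 1.00 for Kcnk6. Whether GFP and H3.3 differ in the rhythm of any member was not tested.

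In the level test of H3.3 against GFP over all ZTs, edgeR called none of the 60 members tested at an adjusted p under 0.01, and 0% of 13891 genes. At an unadjusted p under 0.05 edgeR had 3 members and DESeq2 had 3, with none passing the adjusted threshold in DESeq2. The smallest p was that of Kcnk4, with a log2 difference of H3.3 minus GFP of -0.29 ± 0.12 (SE, edgeR adjusted p = 1.00).

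In Q5A, JTK called 3 of 75 members (4% of them), against 4.52% of all genes. They included Kcna6 (adjusted p = 0.0334, JTK exact null) and Kcnip2 (0.0343). The 3 were also called in the controls, and none passed a q under 0.05, for which the background was 0.00546%. A call in both arms was not always a call of the same wave. The best wave of Kcnip2 had a period of 8 h in Q5A and 24 h in controls, and that of Kcna6 24 h and 20 h. The Q5A call of Kcnip2 was kept in 4 of 13 alternatives, and was lost with 24 h templates only and without the 3 libraries with striatal rows. Q5A had 39 libraries where the controls had 71, so a wave of the same size gives a larger p in Q5A, and each control virus alone, with 32 and 39 libraries, is the closer match in number.

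Kcna6 in Q5A was 19.9, 44.6 and 90.8 at ZT4 and 34.1, 150 and 423 at ZT16 as lowest, median and highest. The mean was highest at ZT16 in Q5A and at ZT0 in controls. Kcnip2 in Q5A was 0, 2.43 and 4.78 at ZT0 and 3.41, 5.66 and 26.6 at ZT12. These 2 calls lay close to the threshold. Leaving out any 1 of 10 of the 39 libraries ended the Kcna6 call, and any 1 of 19 the Kcnip2 call. The adjusted p-values then rose to at most 0.0780 and 0.0613 by the JTK exact null.

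The edgeR test of ZT in Q5A called 0 of 50 members, against 0.188% of all 11706 genes, with 4 members at an unadjusted p under 0.05 and 1 called by DESeq2 (Kcns2). Kcns2, a silent subunit, was highest in a Q5A ZT20 library with striatal rows, where it reached 82.0, and its edgeR adjusted p was 0.140 with and 0.734 without the 3 libraries with striatal rows.

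Side by side, Kcnc2 in Q5A was 6.40, 11.9 and 18.5 at ZT20 (mean 12.3 ± 4.34 SD, n = 6) and 3.27, 13.1 and 17.6 at ZT8 as lowest, median and highest. Its largest Q5A mean was 16.9 at ZT0 and its ratio of highest to lowest mean was 1.47. Kcnj10 had a ratio of 1.31 in Q5A and of 1.69 in controls, whereas Kcnk12 was highest at ZT8 in both, with 31.2, 34.7 and 40.0 in Q5A (mean 35.1 ± 2.89 SD, n = 6). Of the 18 members called in controls, 12 had a larger ratio in controls than in Q5A and 1 had its highest mean at the same ZT in both, but the members were chosen on their control values, so these counts carry no weight as a comparison.

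The direct comparison of levels between Q5A and controls over all ZTs called 0 of 60 members with edgeR, where 0.0144% of genes were called at an adjusted p under 0.01. There were 3 members at an unadjusted p under 0.05 with edgeR and 2 with DESeq2, which also called none. Kcnd3 had a log2 difference of Q5A minus controls of 0.31 ± 0.12 (SE, edgeR adjusted p = 0.847), and Kcnn3, a small-conductance calcium-activated subunit, of 0.26 ± 0.13 (edgeR adjusted p = 0.847). The median log2 difference was -0.0052 over the members and 0.0020 over all genes.

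Within single ZTs edgeR called no gene and hence no member at an adjusted p under 0.01 (0% at each ZT, with 41 to 46 members tested), nor did DESeq2 call a member. At an unadjusted p under 0.05 edgeR had 1, 2, 6, 1, 4 and 6 members at ZT0, ZT4, ZT8, ZT12, ZT16 and ZT20, and DESeq2 had 1, 2, 6, 2, 4 and 6. The values with the smallest p are given for their size.

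At ZT0 Kcnn3 was 2.80, 4.71 and 14.7 in controls and 7.35, 13.96 and 20.4 in Q5A as lowest, median and highest, with overlap (log2 difference 1.05 ± 0.37 SE, edgeR adjusted p = 0.888). At ZT8 Kcnma1 was 32.9, 42.1 and 56.2 in Q5A against 16.5, 33.9 and 41.8 in controls (0.54 ± 0.18, edgeR adjusted p = 0.199), and Kcnd2 was 14.4, 20.2 and 27.2 against 7.49, 13.8 and 24.2 (0.64 ± 0.22, edgeR adjusted p = 0.199). The Q5A median thus exceeded every control library for Kcnma1, but not for Kcnd2.

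At ZT16 Kcna2 was 23.0, 35.7 and 82.3 in Q5A against 17.4, 25.2 and 55.1 in controls (log2 difference 0.72 ± 0.25 SE, edgeR adjusted p = 1.00). At ZT20 Kcna2 was 19.3, 26.1 and 33.8 in Q5A against 26.2, 38.9 and 80.3 in controls (-0.86 ± 0.27, edgeR adjusted p = 0.389), and Kcnc2 had a log2 difference of -1.32 ± 0.42 (edgeR adjusted p = 0.394). The highest Q5A library at ZT20 lay below the control median for both genes. At ZT4 Kcnj6 had a difference of -0.91 ± 0.43, and at ZT12 Kcna1 had one of 0.65 ± 0.28, neither past the edgeR threshold. Marker levels differed between the arms at these ZTs too. The summed CPM of the neuron genes had a median of 560 in Q5A (347 to 717) and 363 in controls (213 to 697) at ZT8, and of 455 (385 to 560) and 573 (339 to 1466) at ZT20. That of the oligodendrocyte genes was 665 in Q5A and 1462 in controls at ZT0, and 1515 and 773 at ZT12. The part of these markers in the member differences was not tested.

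The difference of rhythm itself was tested in edgeR by the interaction of the arm with a 24 h cosine and sine. It called 0 of 60 members at an adjusted p under 0.05, where 0.122% of all 13891 genes were called, with 10 members at an unadjusted p under 0.05 in edgeR and 10 in DESeq2, which called none. Kcnj6 had the smallest p (edgeR adjusted p = 0.227), and Kcnj4, a strong inward rectifier, followed (0.255). Kcna2 (0.258), Kcnd2 (0.260), Kcnk13 (0.279), Kcnc1 (0.279) and Kcnc2 (0.282) came next by the same edgeR test. Kcnj4 had 50, 24 and 35 reads in the 3 libraries with striatal rows and did not pass the filter on low counts without them.

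With cohort as a covariate edgeR also called 0 of 60 members (0.144% of genes), with 12 members at an unadjusted p under 0.05, and DESeq2 was not run in that fit. In cohort 1 alone (52 control and 26 Q5A libraries, without the other 32), the same edgeR interaction called 9 of 53 members, against 6.15% of 12640 genes. Among them were Kcna6 (adjusted p = 0.000119), Kcna1 (0.00497), Kcnc1 (0.00968), Kcna2 (0.0149), Kcnk13 (0.0288), Kcnj6 (0.0288), Kcnj4 (0.0378) and Kcnd2 (0.0414). In cohort 2 alone (14 control and 10 Q5A libraries, 1 to 4 per ZT and arm) edgeR called 0 of 62 members and 0% of 14869 genes, with 0 members at an unadjusted p under 0.05, and DESeq2 was not run. Cohort 3 had 8 libraries and lacked ZTs in both arms, so it has no value here.

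Within cohort 1, Kcna6 at ZT16 was 27.2, 45.4 and 375 in controls as lowest, median and highest, and ran from 150 to 423 in the 4 Q5A libraries with a median of 287. At ZT0 the order was the other way, with 80.4, 119 and 615 in controls and 25.1 to 56.4 in the 4 Q5A libraries. The ZT0 groups did not overlap within cohort 1, whereas the ZT16 groups overlapped between 150 and 375. That separation did not hold over all cohorts, since a Q5A library of cohort 2 at ZT0 had 478. Kcna2 in cohort 1 was 17.4, 24.1 and 55.1 in controls and 35.7 to 82.3 in Q5A at ZT16.

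In cohort 1 alone the edgeR ZT test called 16 of 45 members in controls (background 14.2%) and 7 of 46 in Q5A libraries (background 5.36%), and JTK called 16 of 75 (background 13.2%) and 9 of 75 (background 8.61%). These counts were above those of all cohorts together except for JTK in controls, where 18 became 16. In the GFP and H3.3 libraries of cohort 1 taken apart, JTK called 9 of 75 members each (backgrounds 8.08% and 9.28%), where it had called 11 and 6 over all cohorts. In cohort 2 alone the edgeR ZT test called 2 of 60 members in controls (background 0.335%) and 3 of 62 in Q5A (background 2.09%), Kcna6 among them in both (edgeR adjusted p = 0.000598 in controls and 6.58e-05 in Q5A). Its level tests called 0 of 62 members and 0% of genes for H3.3 minus GFP and for Q5A minus controls, with 0 and 1 members at an unadjusted p under 0.05 in edgeR. In Q5A of cohort 1 the edgeR calls included Kcna6 (adjusted p = 1.68e-05), Kcna2 (0.00406), Kcna1 (0.0166), Kcnab2 (0.0172), Kcns2 (0.0214) and Kcnab1 (0.0255). The level tests of cohort 1 called none of 53 members for H3.3 minus GFP (background 0.0791%, 7 members at an unadjusted p under 0.05 in edgeR) or for Q5A minus controls (background 0.214%, 2 members unadjusted). Within single ZTs of cohort 1 edgeR likewise called no member, against backgrounds of 0.392% at ZT0, 0.0102% at ZT4, 0.0298% at ZT8, 0.0101% at ZT16 and 0% at ZT12 and ZT20, with 2 to 11 members at an unadjusted p under 0.05. DESeq2 was not run on cohort 1 or cohort 2 alone, and JTK was not run on cohort 2 alone.

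Other genes of excitability were read from lists set beside the members. In controls JTK called 3 of 9 voltage-gated sodium channel genes (Scn1a and Scn9a among them), 3 of 16 calcium channel genes (Cacna1d, Cacna1h and Cacna2d4), 0 of 4 HCN pacemaker channel genes, 0 of 3 sodium leak channel genes and 0 of 8 tested partners of potassium channels that are not named Kcn. The edgeR ZT test called 4 of 9 sodium channel genes (among them Scn9a at 0.00499, Scn1a at 0.0119 and Scn8a at 0.0241 as adjusted p), 1 of 16 calcium channel genes, 1 of 4 HCN genes (Hcn4, 0.0378), 0 of 3 leak genes and 1 of 5 partners (Dpp10, 0.0465). Over all genes tested in controls, JTK called 15.2% and the edgeR ZT test 6.4%. In none of these lists did edgeR call a level difference of Q5A or a difference of rhythm.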

How the data were processed

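Poly(A) RNA of dissected TMN was sequenced on Illumina from libraries of a stranded kit. As the study's methods and the submitters' processing notes give it, the authors aligned reads with STAR 2.7.11b to GRCm38 and counted them over exons with HTSeq 2.0.5 (stranded setting yes, Ensembl annotation). The deposited values are raw counts per gene name, not normalised. Rows for unassigned reads (5 per file) were left out of library sizes and tests. A further 18 files, which no label maps to a sample, were not used.

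From the counts, normalised counts were made with median-of-ratios size factors over 9428 genes. JTK_CYCLE was rewritten in Python 3.11.15 with its exact null for 20 templates (8, 12, 16, 20 and 24 h periods) and a mean of at least 1 read, and its adjusted p is corrected over templates. edgeR 4.0.16 in R 4.3.3 (TMM, filterByExpr with minimum count 10 and total 15, quasi-likelihood F tests, Benjamini-Hochberg adjustment over all genes) tested ZT, level and rhythm differences. Thresholds were 0.05 for rhythm and ZT and 0.01 for levels. DESeq2 1.42.0 was an alternative. Scripts were tested on simulated data. Depth was 673306 to 3375352 gene reads per library, so members under 1 read were not tested. p-values measure the spread between mice, 1 per library.

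Members named in the text were chosen by p (up to 15 in controls, 8 in Q5A, 3 in each control virus, and those past or nearest to each edgeR threshold), by reads (the top 10), or by textbook role in firing. Kcnab1, Kcnc4, Kcne1, Kcne2, Kcne4, Kcnh4, Kcnj2, Kcnj12, Kcnmb4 and Kcnn4, the further calls in cohort 1 and the opposite-strand rows were named after their values were seen. Some genes that these rules pick are not reported here. The members and lists were chosen with earlier results of these data known. Gene positions come from GENCODE on GRCm38 and promoters from RefSeq.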

Additional observations from a re-analysis of the deposited data

Results flagged for a closer look

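Each group of libraries of 1 virus and ZT was examined for 10 measures (9 members and the share of gene reads in member rows), which gave 180 combinations of group and measure. In 22 of these combinations 1 library stood apart from the rest by Dixon's criterion at the 95% level, and a group can count more than once. Chance alone marks about 1 in 20 combinations where values are normally distributed and the measures are independent. The share of member rows includes the members' own reads, so the 10 measures are not independent. Whether the counts are normally distributed was not tested. In all 22 combinations the library that stood apart was the highest.

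Kcna6 gave 9 of the 22. Its normalised count was 615 in GFP ZT0 cohort 1 replicate 4, where the others of the group lay between 92.3 and 126. It was 186 in GFP ZT4 cohort 1 replicate 4, 375 in GFP ZT16 cohort 1 replicate 1, 943 in H3.3 ZT0 cohort 2 replicate 1 and 404 in H3.3 ZT4 cohort 1 replicate 4. It was 531 in H3.3 ZT8 cohort 3 replicate 1, 754 in H3.3 ZT12 cohort 3 replicate 1, 309 in H3.3 ZT16 cohort 2 replicate 1 and 209 in Q5A ZT12 cohort 1 replicate 1. Every one of these 9 was the highest library of its group.

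The share of gene reads in potassium channel rows stood apart in 5 groups, at 0.167% in GFP ZT16 cohort 1 replicate 1, 0.159% in GFP ZT20 cohort 1 replicate 4, 0.170% in H3.3 ZT0 cohort 2 replicate 1, 0.158% in H3.3 ZT12 cohort 3 replicate 1 and 0.215% in Q5A ZT12 cohort 2 replicate 1. The GFP ZT16, H3.3 ZT0 and H3.3 ZT12 libraries among these were also those high in Kcna6. The share includes the Kcna6 reads, so these are not separate observations. Kcna6 gave 960 of 2680 member reads in the H3.3 ZT0 library and 732 of 2374 in the H3.3 ZT12 library.

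The remaining 8 concerned single members. Kcnip2 was 14.2 in GFP ZT16 cohort 1 replicate 3, 26.6 in Q5A ZT12 cohort 1 replicate 4 and 41.0 in Q5A ZT20 cohort 1 replicate 3, the last a library with striatal rows. Kcnc2 was 27.9 in H3.3 ZT16 cohort 1 replicate 3, and Kcna2 was 55.1 in GFP ZT16 cohort 1 replicate 1. Kcnma1 was 53.4 in H3.3 ZT16 cohort 2 replicate 2 and 76.3 in Q5A ZT12 cohort 2 replicate 1, and Kcng2 was 20.9 in H3.3 ZT4 cohort 1 replicate 1.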

How the results depend on the processing

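Of the counts of called members recomputed under alternatives, 179 stayed within 1.5 times the reported count and 30 did not. Among single named members 633 values kept their direction and side of the threshold, 145 lost the call and 8 gained one. The JTK calls kept under every alternative were those of Kcna6, Kcnip2, Kcnj10, Kcnk12 and Kcnk13 in controls and Kcnk13 in GFP, and the edgeR ZT call of Kcnc2 was kept under 14 of 15, with cohort 2 alone as the exception. Leaving out 1 control library at a time kept 16 of the 18 control calls. Kcne2 was lost without either of 2 H3.3 ZT8 libraries, and Kcnj12 without any of 28 libraries. The alternatives on the libraries of highest gene share, on gene share as a term, on striatal rows and on cohort 2 were chosen after seeing the data. Apart from the settings that use fewer libraries or genes, the causes were not tested.

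A Benjamini-Hochberg q over all genes left 5 JTK members for the pooled controls (442 genes), 1 for GFP (57 genes), 0 for H3.3 (1 gene) and 0 for Q5A (1 gene). With 24 h templates only, JTK called 17 members in GFP (2884 genes) and 12 in H3.3 (2034 genes). With gene share regressed out it called 7 in GFP (1545 genes) and 2 in H3.3 (1022 genes), and without the libraries of highest gene share 1 in H3.3 (784 genes). Without replicates of 1 number, JTK called 0 to 2 members in Q5A (530 to 753 genes) and 2 to 6 in H3.3 (774 to 1286 genes). Cohort 1 alone gave 9 JTK members in Q5A (1577 genes).

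The edgeR ZT count of 8 members in controls (762 genes) became 14 with DESeq2 (1123 genes), 16 in cohort 1 (1548 genes) and 13 with cohort as a covariate (1205 genes). It became 2 without the libraries of highest gene share (481 genes) and 1 to 7 without replicates of 1 number (102 to 683 genes). The Q5A count of 0 (22 genes) became 1 with DESeq2 (68 genes), 6 with no filter (652 genes) and 7 in cohort 1 (609 genes). The ZT counts of cohort 2 alone are left out, since some of its ZTs had 1 library. The rhythm-difference count of 0 (17 genes) became 9 in cohort 1 (777 genes) and stayed 0 in cohort 2 (0 genes) and with cohort as a covariate (20 genes), and the 17 genes became 98 with no filter and 3 with gene share as a covariate. Depth limits these results, since 18 members had under 1 read per library.

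Replicate numbers did not pair the libraries. Deviations of libraries with the same number and cohort from different groups had a median correlation of 0.019 over 778 pairs (-0.566 to 0.696), beside 0.013 over 2387 pairs with other numbers. With a replicate block, edgeR called 11 members for ZT in controls (1110 genes), 0 in Q5A (1 gene), 0 for the rhythm difference (6 genes) and 1 for Q5A minus controls at ZT0 (27 genes).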
